A study of Danio rerio with 6 samples.

Results

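DNA replication and mitosis genes are the genes that dividing cells switch on to copy and then to separate their chromosomes. 40 such genes, listed by symbol, were looked up in a table of 31901 genes, and all 40 were found, as 42 gene identifiers because rrm2 and ube2c each stand for 2. Their transcripts were compared between 3 pools of dscaml1-/- larvae and 3 pools of wild-type siblings. dscaml1 encodes a DSCAM-like protein of neuronal cell adhesion, and the mutant allele, vt1, is a small frameshift deletion that leads to a premature stop codon. Every pool held 6 to 11 zebrafish larvae of 3.5 to 4 days post-fertilization (dpf), sexually undifferentiated, untreated, from heterozygous parents in a mixed AB and TL background. The labels name whole animals whereas the methods state that only the front of the body went into RNA preparation, and which of these was sequenced is not clear from either. In either case, fewer dividing cells and fewer transcripts per dividing cell cannot be told apart in these bulk libraries.

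Before S phase, ORC, Cdc6 and Cdt1 load the MCM helicase on replication origins, and GINS and Mcm10 help to activate it. During S phase PCNA clamps the polymerases to DNA, while ribonucleotide reductase and thymidylate synthase supply nucleotides. Cyclin A and cyclin B then drive Cdk1, and the Polo and Aurora kinases, kinesins and the spindle checkpoint carry the cell through mitosis. In vertebrates many S-phase genes are regulated by E2F factors and many mitotic genes by B-MYB and FOXM1, so that both sets fall silent when cells leave the cycle. In zebrafish larvae of this age, dividing cells remain in places such as the rim of the retina, the proliferative zones of the brain, the gut and the liver.

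The values are read counts per gene, scaled by the authors with a size factor for each library (normalized counts). The reads recovered from them ranged from 18725190 to 20476688 in mutants (median 19617255) and from 21863982 to 23516860 in wild type (median 23278471). All 42 identifiers passed the filter on low values, a mean of at least 5, as did 21302 genes in all. dscaml1 itself had 399.6, 336 and 355 normalized counts in mutant replicates 1, 2 and 3, against 333.5, 395 and 375 in the wild-type replicates, and since the allele is a small deletion its level checks no label. Over all genes, replicate 2 of both genotypes stood apart from replicates 1 and 3 on principal component 1 (70.9% of the variance), so the fit carried a term for replicate 2 and the main results are also given within pairs of equal replicate number. The labels do not say what sets replicate 2 apart, nor that pools of equal number belong together.

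Mean levels of the mitotic genes were lower in mutants, whereas those of the MCM helicase genes lay near the wild-type level with wide intervals. The 42 identifiers had a median log2 fold change of −0.38 (mutant minus wild type, on the log2(normalized count + 1) scale), against 0.01 over all genes tested. 40 of the 42 had a negative log2 fold change, and 27 were lower in mutants in all 3 pairs, which 20.6% of all genes tested were. None was higher in all 3. With limma and Benjamini-Hochberg adjustment, 0 of the 42 reached an adjusted p under 0.05, and 0.0751% of the genes tested did so as lower, while 17 were lower and 0 higher at an unadjusted p under 0.05 (7.90% and 6.10% of all genes). The 17 became 1 with no term for replicate 2 and 10 without wild-type replicate 1. The shares of all genes in those fits are not given here, so a loss over all genes cannot be told from a loss among the members. edgeR also called 0, with 17 at an unadjusted p under 0.05, as were 2972 of the 21302 genes tested in either direction. The likelihood ratio test of DESeq2 called 7, all lower (1.82% of all genes): top2a, ccnb1, bub1, kif11, kif23, plk1 and tpx2. The DESeq2 count became 1 (top2a) without mutant replicate 1 (1.71% of all genes called lower), mutant replicate 3 (0.770%) or wild-type replicate 3 (0.681%). It became 0 without wild-type replicate 1 (0.798% of all genes) and 0 with no term for replicate 2 (0.113%). Without mutant replicate 2 or wild-type replicate 2 it was 8 (0.944% and 0.897% of all genes). It was 8 on replicates 1 and 3 alone (1.01% of all genes), where plk1 was not called and cdk1 and 1 identifier of ube2c were. When either replicate 2 library is left out, the replicate 2 term absorbs the other. The genotype estimate then rests on replicates 1 and 3, so these fits are not separate checks. With the replicate number as a block it was 10 (2.05% of all genes), the 7 with cdk1, cenpf and mki67. With that block limma placed 25 members lower at an unadjusted p under 0.05 (9.79% of all genes) and again 0 past an adjusted p of 0.05.

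**Figure D1:**
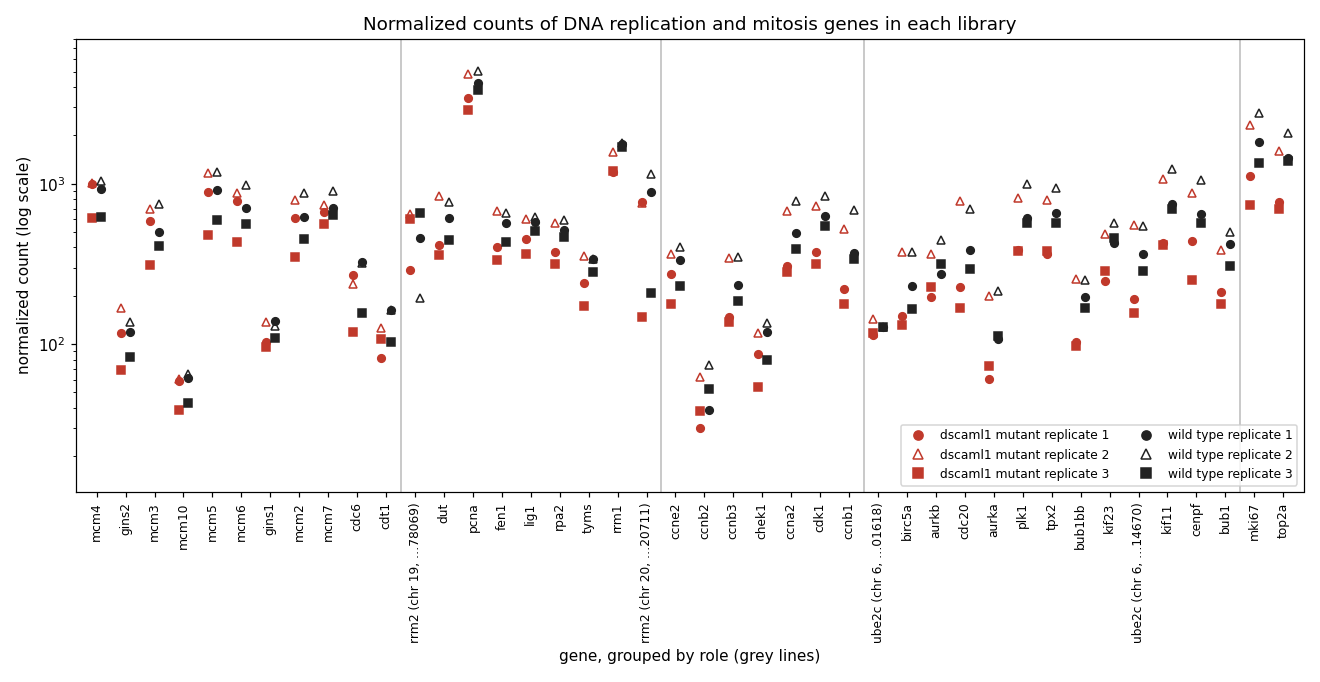
Normalized counts (log scale) of the 42 gene identifiers in each library, mutant libraries in red left of wild-type libraries in black, with circles, open triangles and squares for replicates 1, 2 and 3. Replicate 2 lies above replicates 1 and 3 in both genotypes for 37 of the 42, and rrm1 is the single one whose 3 mutant values all lie below its wild-type values.

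The gene with the lowest p was top2a, which encodes topoisomerase II alpha, the enzyme that untangles sister chromatids (ENSDARG00000024488, chromosome 12 of GRCz11 from 10706772 to 10740236). It had 771, 1590 and 695 normalized counts in mutant replicates 1, 2 and 3, against 1444, 2066 and 1389 in the wild-type replicates. Mutants were lower in each pair, but mutant replicate 2 lay above wild-type replicates 1 and 3, so the genotypes overlapped. Mutants averaged 1019 ± 496 and wild type 1633 ± 376 (SD, 3 pools per genotype). The log2 fold change was −0.76 (95% interval −1.08 to −0.44), with an adjusted p of 0.119 from limma and 0.000999 from DESeq2. mki67, which encodes the proliferation marker Ki-67 that coats mitotic chromosomes, had 1123, 2335 and 740 in mutants, against 1809, 2759 and 1347 in wild type. It too was lower in each pair, with a log2 fold change of −0.60 (95% interval −1.06 to −0.13, adjusted p = 0.259 from limma and 0.139 from DESeq2).

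Among cyclins and CDK1 all 7 members were lower in mutants in all 3 pairs (20.6% of all genes tested), with a median log2 fold change of −0.40. ccnb1, which encodes cyclin B1 (ENSDARG00000051923, chromosome 5 from 54711027 to 54714789), had 221, 524 and 179 normalized counts in mutants, against 372, 690 and 338 in wild type. cdk1, the kinase that cyclin B activates, had 376, 722 and 315 in mutants, against 627, 843 and 543 in wild type. ccna2, which encodes the cyclin A of S and G2 phase, had 309, 678 and 280 in mutants, against 491, 784 and 390 in wild type. For all of these 3 genes the replicate 2 value was the highest of its genotype, and it placed mutant replicate 2 above wild-type replicates 1 and 3. Their log2 fold changes were −0.69, −0.58 and −0.45 in that order, with adjusted p of 0.141, 0.178 and 0.234 from limma and of 0.0113, 0.0517 and 0.147 from DESeq2. The other cyclin B genes, ccnb2 and ccnb3, had log2 fold changes of −0.35 and −0.36, and the S-phase cyclin gene ccne2 one of −0.26. chek1, the kinase of the DNA damage and replication checkpoint, had −0.40 (95% interval −0.96 to 0.16). None of these 4 reached an unadjusted limma p under 0.05 in the main fit. With the replicate block ccnb3, ccne2 and chek1 did, as did 6 of the 7 members of this group (9.79% of all genes were lower at this level).

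The 13 identifiers of mitotic kinases, spindle proteins and mitotic exit factors all had negative log2 fold changes, with a median of −0.56. Of these, 8 were lower in mutants in all 3 pairs (20.6% of all genes tested). An unadjusted limma p under 0.05 was reached by 10 (7.90% of all genes were lower at this level), and by 10 with the replicate block (9.79% of all genes). bub1, a kinase of the spindle checkpoint (ENSDARG00000077029, chromosome 20 from 2610550 to 2641246), had 212, 387 and 178 normalized counts in mutants, against 418, 502 and 306 in wild type. cenpf, a large protein of the kinetochore and nuclear matrix, had 436, 876 and 250 in mutants, against 647, 1047 and 566 in wild type. Both had their highest value in replicate 2 of each genotype, and in both every pair was lower in the mutant. The log2 fold change was −0.71 for bub1 (95% interval −1.11 to −0.30, adjusted p = 0.168 from limma and 0.0294 from DESeq2) and −0.67 for cenpf (95% interval −1.19 to −0.15, adjusted p = 0.262 from limma and 0.146 from DESeq2).

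Spindle motors and their partner tpx2 were likewise lower in each pair. kif11, the motor that pushes spindle poles apart, had 424, 1069 and 412 normalized counts in mutants, against 748, 1238 and 694 in wild type. kif23, the motor of the central spindle, had 246, 485 and 283 in mutants, against 429, 572 and 459 in wild type. tpx2, which nucleates spindle microtubules and activates Aurora A (annotated over part of mylk2), had 366, 789 and 380 in mutants, against 659, 937 and 569 in wild type. In all of these 3 genes mutant replicates 1 and 3 lay below all wild-type libraries, and mutant replicate 2 lay among them. Their log2 fold changes were −0.59, −0.58 and −0.56, with adjusted p of 0.155, 0.168 and 0.158 from limma and of 0.0246, 0.0345 and 0.0310 from DESeq2.

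Of the mitotic kinases, plk1, the Polo kinase (ENSDARG00000058471, chromosome 1 from 9153141 to 9161843, overlapping BX004779.1), had 384, 814 and 378 normalized counts in mutants, against 614, 995 and 569 in wild type. aurkb, the Aurora kinase of the chromosomal passenger complex, had 197, 363 and 225 in mutants, against 274, 444 and 317 in wild type. aurka, the Aurora kinase of the spindle poles, had 60.4, 199.9 and 72.9 in mutants, against 107.5, 214 and 112 in wild type. These kinases again had mutant replicates 1 and 3 below every wild-type library, with log2 fold changes of −0.52, −0.42 and −0.51 and adjusted p of 0.145, 0.230 and 0.278 from limma. birc5a, which encodes the survivin partner of aurkb, had 149.5, 374 and 132 in mutants, against 229, 372 and 166 in wild type, and in it the replicate 2 pair hardly differed (log2 difference 0.004).
In 4 further identifiers of this group the replicate 2 pair was not lower in the mutant. Its log2 difference was 0.17 in cdc20 and in ube2c (ENSDARG00000101618). It was nearly level in bub1bb (0.02) and ube2c (ENSDARG00000114670, 0.01). cdc20, the activator of the anaphase-promoting complex, had 228, 781 and 168 normalized counts in mutants, against 388, 692 and 293 in wild type, so that it was lower in mutant replicates 1 and 3 and higher in mutant replicate 2. bub1bb, which encodes the checkpoint protein BubR1, had 103, 254 and 97.2 in mutants, against 197, 251 and 168 in wild type. Their log2 fold changes were −0.46 and −0.56 (adjusted p = 0.419 and 0.279 from limma). ube2c, the ubiquitin-conjugating enzyme of that complex, is annotated as 2 neighbouring identifiers on chromosome 6. ENSDARG00000114670 had 191, 552 and 157 in mutants, against 365, 548 and 284 in wild type, while ENSDARG00000101618 had 114, 143 and 118 in mutants, against 128, 127 and 127 in wild type. The log2 fold change was −0.59 for ENSDARG00000114670 and −0.03 for ENSDARG00000101618, where replicate 2 also ran the other way, and how reads were divided between them is uncertain.

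**Figure D2:**
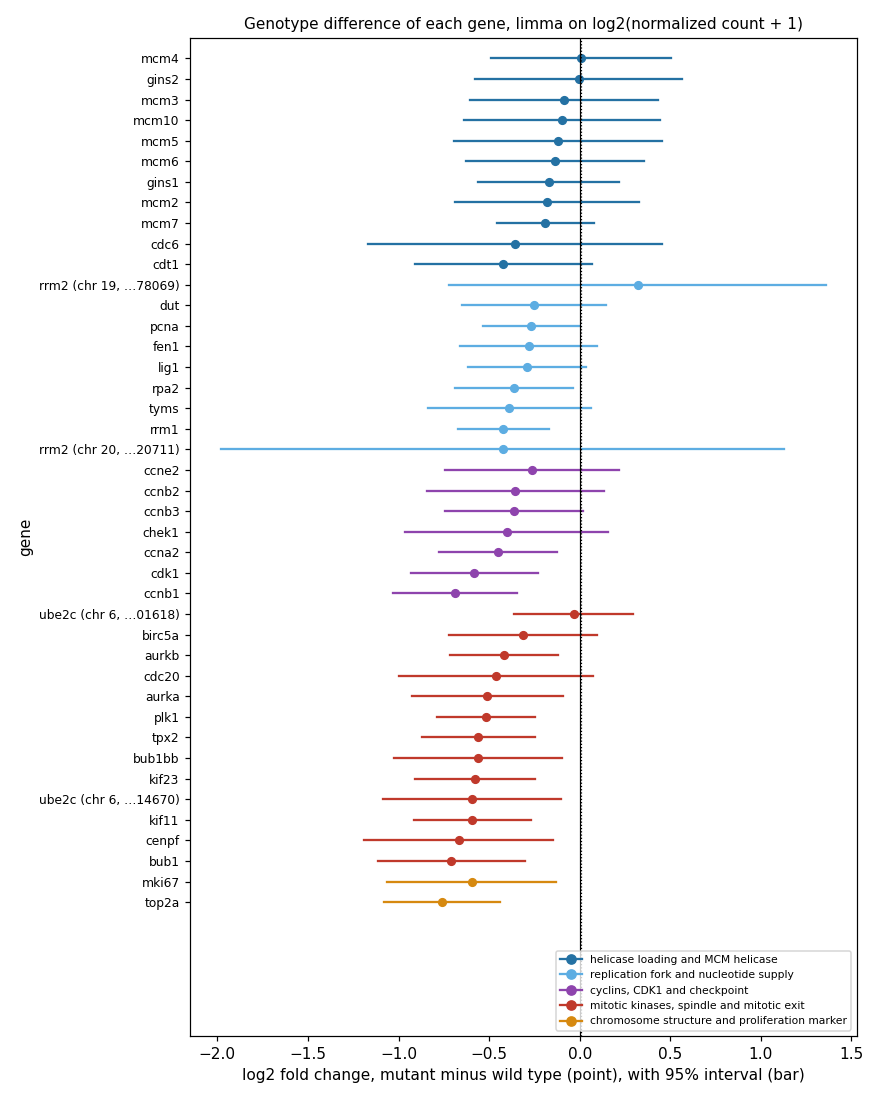
Log2 fold change of each of the 42 identifiers (mutant minus wild type, points) with its 95% interval from limma (bars), coloured by role, and the dotted line marks the median of all genes tested at 0.01. Intervals of the MCM genes span 0, and those of top2a, mki67, ccnb1, cdk1, ccna2 and 10 of the 13 mitotic identifiers lie below it, as do those of rrm1 and rpa2.

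The 11 genes of helicase loading and the MCM helicase had a median log2 fold change of −0.14. 10 of the 11 were negative, and 5 were lower in mutants in all 3 pairs (20.6% of all genes tested). 0 of them reached an unadjusted limma p under 0.05 (7.90% of all genes were lower at this level). With the replicate block 1 did, cdc6 (9.79% of all genes were lower at this level). mcm4, a helicase subunit, had 994, 1005 and 607 normalized counts in mutants, against 928, 1037 and 619 in wild type. mcm5, another subunit, had 888, 1166 and 477 in mutants, against 911, 1178 and 592 in wild type. Both were lowest in replicate 3 of each genotype, the pairs of mcm4 were nearly level, and in mcm5 the replicate 3 pair differed most. The log2 fold change of mcm4 was 0.01 (95% interval −0.49 to 0.51) and that of mcm5 −0.12 (95% interval −0.70 to 0.45), so that a difference of about the size seen for kif11 lies within the interval of mcm5 and not of mcm4. Of the other helicase subunits, mcm2, mcm3, mcm6 and mcm7 had log2 fold changes between −0.19 and −0.09. The activation factors mcm10, gins1 and gins2 had −0.10, −0.17 and −0.005. The loading factors cdc6 and cdt1 had more negative values with wide intervals. Within pairs 1, 2 and 3 the log2 differences of cdc6 were −0.27, −0.42 and −0.38. Those of cdt1 were less even, at −0.98, −0.37 and 0.08. cdc6 had 270, 237 and 119 in mutants, against 325, 318 and 156 in wild type (log2 fold change −0.36, 95% interval −1.17 to 0.45). cdt1 had 81.9, 126 and 108 in mutants, against 163, 163 and 102 in wild type (log2 fold change −0.42, 95% interval −0.91 to 0.07).

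Genes of the replication fork and of nucleotide supply lay between the helicase and the mitotic genes, with a median log2 fold change of −0.29 over 9 identifiers. Of these, 8 were negative and 5 were lower in mutants in all 3 pairs (20.6% of all genes tested). At an unadjusted limma p under 0.05, 2 were lower (7.90% of all genes), or 6 with the replicate block (9.79% of all genes). rrm1, the large subunit of ribonucleotide reductase (ENSDARG00000014017, chromosome 21 from 30772043 to 30787414), had 1186, 1578 and 1202 normalized counts in mutants, against 1778, 1784 and 1701 in wild type. It was the single member whose genotypes did not overlap, with the 3 mutant values under the 3 wild-type values, as in 4.55% of all genes tested. Its log2 fold change was −0.42 (95% interval −0.67 to −0.17, adjusted p = 0.178 from limma and 0.0567 from DESeq2). pcna, the sliding clamp, had 3414, 4796 and 2890 in mutants, against 4272, 5015 and 3845 in wild type, lower in each pair, with a log2 fold change of −0.27 (95% interval −0.54 to 0.003, adjusted p = 0.361 from limma). rpa2, a subunit of the protein that coats single-stranded DNA, had 374, 569 and 316 in mutants, against 516, 593 and 465 in wild type (log2 fold change −0.36, with a limma adjusted p of 0.314).
The flap endonuclease gene fen1, the ligase gene lig1 and the dUTPase gene dut had log2 fold changes of −0.28, −0.29 and −0.25, and tyms, which encodes thymidylate synthase, had −0.39. In tyms, fen1 and dut the replicate 2 pair ran the other way, by log2 differences of 0.05, 0.04 and 0.11. rrm2, the small subunit of ribonucleotide reductase, is annotated as 2 identifiers on different chromosomes with unlike patterns. ENSDARG00000020711 on chromosome 20 had 773, 762 and 147 in mutants, against 884, 1146 and 208 in wild type, so that replicate 3 of both genotypes stood low. ENSDARG00000078069 on chromosome 19 had 290, 643 and 602 in mutants, against 457, 193 and 656 in wild type, with wild-type replicate 2 the lowest. Summed over both, rrm2 had 1063, 1405 and 749 in mutants, against 1341, 1338 and 864 in wild type. The sequences of both were not compared, and how reads were divided between them is uncertain.

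Within pairs, the genotype difference was seen in replicates 1 and 3 and was smaller in replicate 2. The median log2 difference of the 42 identifiers was −0.53 in replicate 1, −0.13 in replicate 2 and −0.48 in replicate 3, against 0.004, −0.002 and 0.02 over all genes tested. In these pairs 39, 31 and 41 of the 42 were lower in the mutant. The mitotic kinase and spindle group had medians of −0.80, −0.21 and −0.69, and the helicase group −0.04, −0.11 and −0.28. A term for a genotype effect that differs in replicate 2 reached an adjusted p under 0.05 from limma for 0 of the 42 and for 0 genes in all, and 6 of the 42 had an unadjusted p under 0.05 (3.53% of all genes). The 6 were top2a, kif11, cdc20, bub1bb and 1 identifier each of ube2c and rrm2, and all had a less negative or a positive difference in replicate 2.

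**Figure D3:**
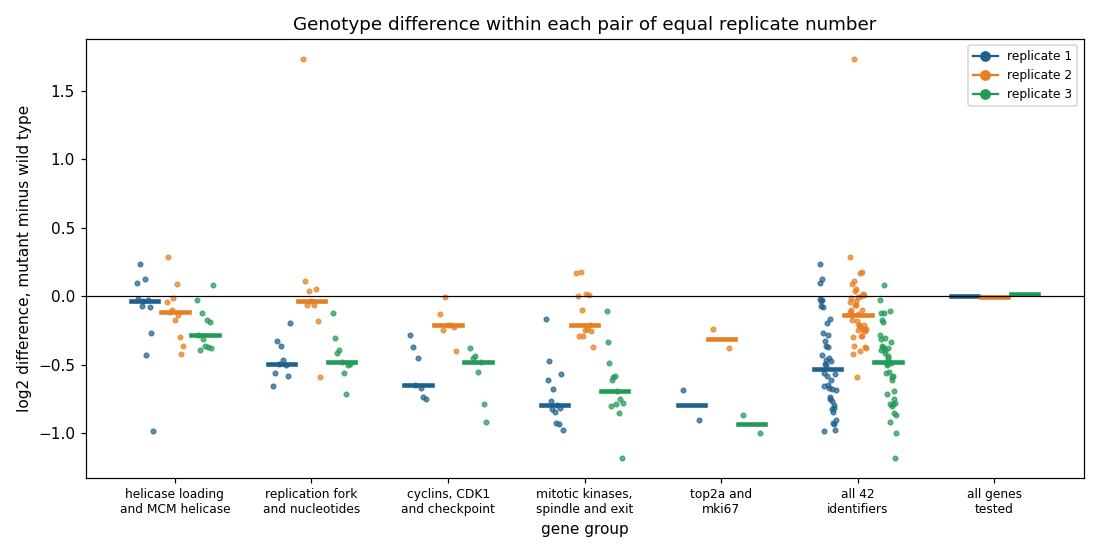
Log2 difference between mutant and wild type within each pair of equal replicate number (points, genes; bars, medians), by role, over the 42 identifiers and, as medians, over all genes tested. The medians of the 42 are −0.53, −0.13 and −0.48 for replicates 1, 2 and 3, and those of all genes lie near 0.

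Replicate 2 differed from replicates 1 and 3 more than the genotypes did. 24 of the 42 identifiers were higher in replicate 2 at an adjusted p under 0.05 from limma and 0 were lower, against 13.7% of all genes tested that were higher. The median log2 difference was 0.72 over the 42 and −0.005 over all genes. In 37 of the 42 the replicate 2 value exceeded both other values in both genotypes, which held for 31.0% of all genes. cdc20 had the largest difference, a log2 value of 1.51 (adjusted p = 0.00346 from limma), followed among single identifiers past the threshold by aurka with 1.27 (0.00263), ube2c (ENSDARG00000114670) with 1.22 (0.00603), ccnb1 with 1.18 (0.00151) and birc5a with 1.17 (0.00326). plk1, kif11 and ccna2 had 0.92, 1.07 and 1.02 (adjusted p = 0.00157, 0.00180 and 0.00231 from limma). By role, 12 of 13 mitotic identifiers and 5 of 7 cyclin, CDK1 and checkpoint genes were higher in replicate 2, as were both top2a and mki67, but 4 of 9 fork and nucleotide identifiers and 1 of 11 helicase genes, mcm2 (log2 difference 0.75, adjusted p = 0.0431 from limma). The 24 became 3 without mutant replicate 2, where wild-type replicate 2 alone stood against replicates 1 and 3, and lay between 18 and 27 without any 1 of the other libraries.

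**Figure D4:**
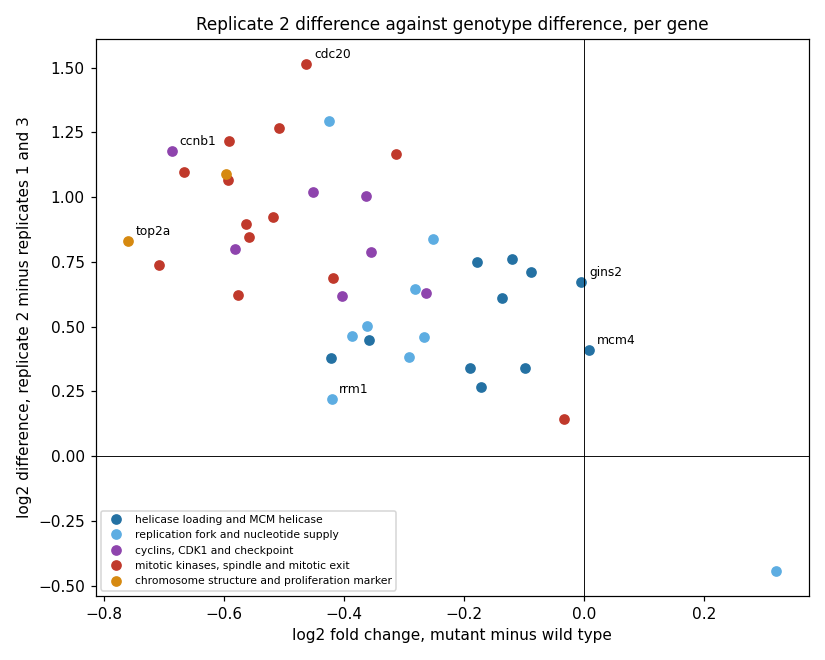
Log2 difference of replicate 2 from replicates 1 and 3 (vertical) against the log2 fold change between mutant and wild type (horizontal) for each identifier, coloured by role, both from 1 fit. Most mitotic genes lie at the upper left and most helicase genes nearer to 0 on the horizontal axis. ube2c (ENSDARG00000101618) lies near 0 on both axes, and cdc6 and cdt1 lie farther left than birc5a. cdc20 is highest at 1.51 and top2a farthest left at −0.76.

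Further genes of the same processes were taken from lists outside the 40, and the difference between these lists was not tested. All 42 other mitosis genes tested had negative log2 fold changes, with a median of −0.52. Of these, 31 had an unadjusted limma p under 0.05 (7.90% of all genes were lower at this level), 0 reached an adjusted p under 0.05 from limma or edgeR and 13 were called lower by DESeq2 (1.82% of all genes). kif4, a chromosome-bound kinesin, had 240.4, 404 and 272 normalized counts in mutants, against 434, 546 and 414 in wild type (log2 fold change −0.63, adjusted p = 0.127 from limma). ncaph and smc4, subunits of the condensin complex, had log2 fold changes of −0.70 and −0.65 (adjusted p = 0.127 and 0.129 from limma). smc4 lies on chromosome 15, as dscaml1 does, and none of the 42 identifiers does. Of 39 other replication genes tested 35 had negative values, with a median of −0.27, and 22 were lower in all 3 pairs (20.6% of all genes). At an unadjusted limma p under 0.05, 5 were lower (7.90% of all genes), or 10 with the replicate block (9.79% of all genes). 0 reached an adjusted p under 0.05 from limma, edgeR or DESeq2. They include dnmt1, the maintenance DNA methyltransferase (log2 fold change −0.40), dbf4 (−0.41) and cdc45 (−0.45).
Among 26 regulators of G1 and of cell cycle transcription the median was −0.12, with 4 lower at an unadjusted limma p under 0.05 (7.90% of all genes). These include foxm1, the transcription factor of G2 and M phase genes, which had 85.8, 169 and 74.3 normalized counts in mutants, against 159, 205.2 and 139 in wild type (log2 fold change −0.68, adjusted p = 0.178 from limma). cdk6 and mybl2b had −0.56 and −0.42 (adjusted p = 0.235 and 0.309 from limma). The 16 CDK inhibitors and antiproliferative genes had a median of 0.06, with 11 positive and 5 negative. 1 of them, cdkn1bb, a p27 inhibitor gene, was higher at an unadjusted limma p under 0.05, against 6.10% of all genes. It had 1397, 1583 and 1614 in mutants, against 1306, 1383 and 1162 in wild type (log2 fold change 0.26, adjusted p = 0.344 from limma). At low counts, cdkn2a/b had 21.4, 19.8 and 7.36 in mutants, against 11.0, 4.61 and 5.91 in wild type (log2 fold change 1.02, adjusted p = 0.414 from limma). cdkn1a, the p21 gene, had a log2 fold change of −0.40 between genotypes and a log2 difference of −1.69 in replicate 2 (adjusted p = 0.00129 from limma for replicate 2).

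Cell type markers moved with the same libraries. Summed exocrine pancreas markers came to 158746, 284 and 138945 normalized counts in mutant replicates 1, 2 and 3, against 181264, 571 and 254084 in the wild-type replicates, and all 15 tested were lower in replicate 2 at an adjusted p under 0.05 from limma, as were 17.8% of all genes. Enterocyte markers came to 76455, 31181 and 64262 in mutants, against 87930 (replicate 1), 51216 (replicate 2) and 105940 (replicate 3) in wild type, and 10 of 12 tested were lower in replicate 2. Skeletal muscle markers ranged from 163339 to 506174 in mutants and from 253149 to 443861 in wild type, with replicate 2 the lowest in each genotype and 13 of 17 lower in it. Erythroid markers came to 12328, 82883 and 10167 in mutants, against 21707, 104712 and 11622 in wild type. Of these, 12 of 13 tested were higher in replicate 2 (13.7% of all genes were). Of the hepatocyte markers 13 of 15 tested were lower in replicate 2, with a median log2 difference of −0.98. The replication and mitosis genes were higher in replicate 2 as the erythroid markers were. Of the neural and retinal progenitor markers, 10 of 23 tested were higher in replicate 2 at an adjusted p under 0.05 from limma and 0 lower. Over all genes 13.7% were higher.
Between genotypes, hepatocyte markers were lower in mutants, with 12 of 15 tested at an unadjusted limma p under 0.05 (7.90% of all genes were lower at this level) and 4 past an adjusted p of 0.05 (0.0751% of all genes). Their summed values ran from 86089 to 152177 in mutants and from 120334 to 173231 in wild type. Exocrine pancreas and enterocyte markers had median log2 fold changes of −0.82 and −0.41, with 11 of 15 and 6 of 12 lower at an unadjusted limma p under 0.05. Erythroid markers had a median of −0.50, with all 13 negative and 9 lower in all 3 pairs (20.6% of all genes). At an unadjusted limma p under 0.05, 3 of them were lower, or 10 with the replicate block (9.79% of all genes). Skeletal muscle markers had a median of −0.20, with 6 of 17 lower at an unadjusted limma p under 0.05. The medians of all these lists were negative, as was that of the replication and mitosis genes, but their pairs differed. In pairs 1, 2 and 3 the medians were −0.57, −0.89 and −0.58 for hepatocyte and −0.27, −0.98 and −1.18 for exocrine pancreas markers. Enterocyte markers had −0.11, −0.67 and −1.45, erythroid markers −0.89, −0.40 and −0.23, and skeletal muscle markers −0.04, −0.57 and 0.06. The replication and mitosis genes had −0.53, −0.13 and −0.48. Neural and retinal progenitor markers had a median of 0.03, with 2 of 23 lower and 4 higher at an unadjusted limma p under 0.05 (7.90% and 6.10% of all genes). Within pairs 1, 2 and 3 their medians were −0.04, −0.07 and 0.32, with 14, 14 and 7 of the 23 lower in the mutant. Their summed values ran from 10814 to 18378 in mutants and from 11331 to 19083 in wild type. Among them her4.2, a Notch target, had a log2 fold change of 0.66 and gfap, a radial glia gene, one of −0.42 (adjusted p = 0.127 and 0.168 from limma). DESeq2 called 1 of the list higher, her4.2 (adjusted p = 0.00318), and 1 lower, gfap (adjusted p = 0.0279). Of the 21302 genes tested it called 193 higher and 388 lower. Neuron markers had a median of 0.13, with 1 of 16 lower and 5 higher at an unadjusted limma p under 0.05 (7.90% and 6.10% of all genes). By pair, the neuron marker medians were 0.37, −0.22 and 0.25 in replicates 1, 2 and 3. Markers listed at 0 in every library were sox2, sox3, apoc1 and 3 apoa4b genes. Whether these values reflect absent transcripts or the annotation and counting was not tested. The progenitor median is thus without sox2 and sox3. The part of these cell types in the values of the replication and mitosis genes was not tested.

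**Figure D5:**
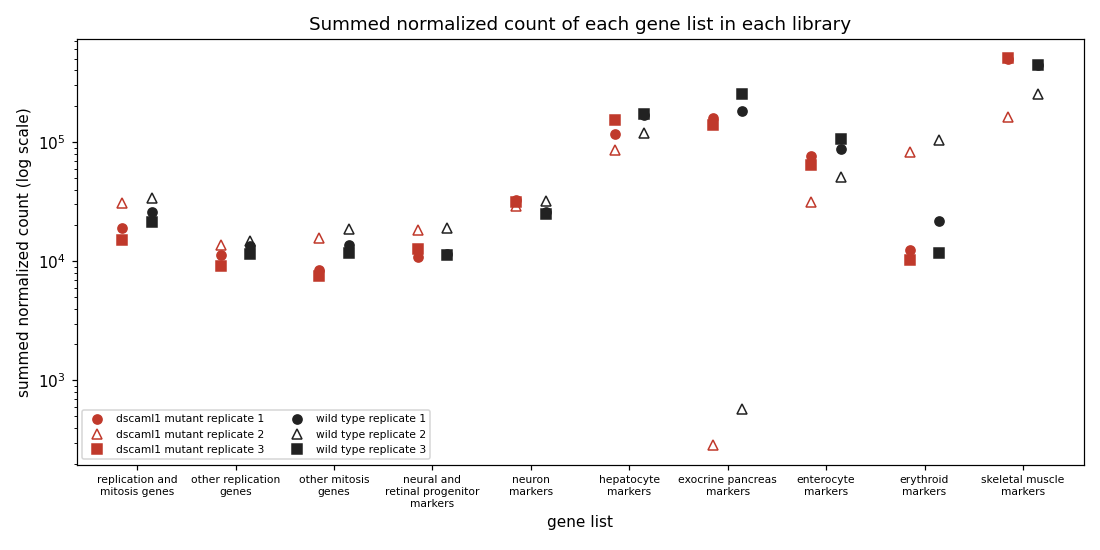
Summed normalized counts (log scale) of each gene list in each library, mutant libraries in red left of wild-type libraries in black, with circles, open triangles and squares for replicates 1, 2 and 3. The replicate 2 libraries stand at 284 and 571 for exocrine pancreas markers, where the other libraries lie between 138945 and 254084, and highest of their genotype for replication, mitosis and erythroid genes.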

How the data were processed

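Polyadenylated RNA of 3 dscaml1-/- and 3 wild-type pools was sequenced from strand-specific libraries. The deposited signal values are gene counts after the authors' scaling with a size factor for each library. The submitters' processing notes name TopHat2, HISAT2, HTSeq and GRCz11, with no versions. Columns holding the authors' fold changes and p-values were not used, nor were the 3 short tables, which list rows picked by that test. 0 sample columns were left unmapped.

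Each value was a whole multiple of 1 read (100% of values to within 0.001 reads). limma (version 3.58.1, R 4.3.3) with a mean-variance trend was fitted to log2(value + 1) of 21302 genes (mean value 5 or more), with genotype and a replicate 2 term. Fold changes on this scale understate changes of low genes. DESeq2 (1.42.0, likelihood ratio test) and edgeR (4.0.16, quasi-likelihood test) were run on the recovered reads, and the fits were tested on simulated data. With 3 pools a genotype, p-values reflect only how these pools vary, and an exact two-sided permutation test of 1 gene cannot go below 0.1. Deviations from the genotype means correlated between equal replicate numbers (r = 0.65, 0.86 and 0.70 across genes), each above 0.1, and the numbers were taken to pair the libraries. Replicates 1 and 3 also correlated across unequal numbers (r = 0.50 and 0.35), while replicate 2 correlated negatively with both (r from −0.74 to −0.62). Because replicate 2 stands apart in both genotypes, replicates 1 and 3 deviate the other way in each. Positive values among replicates 1 and 3 follow from that and cannot show which of them pair. Their pairing by number is an assumption, and the results by pair or block rest on it. Libraries of a genotype differed beyond sampling noise (lowest chi-square over its degrees of freedom 21.1).

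The members, lists and tests were chosen with earlier results of these data known. Values per library are given for the members with the 10 lowest genotype p, the 6 highest means, the 6 lowest replicate 2 p and the 4 largest fold changes. Fold changes from other lists are given for some of the 3 genes with the lowest p of a list, and values per library for only a few of these. Other members with values per library were chosen after their values were seen. 10 of the 42 identifiers overlap another annotated gene, and the strand setting of the counting is not given in the sources used here.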

Additional observations from a re-analysis of the deposited data

How the results depend on the processing

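The count of members past an adjusted p of 0.05 between genotypes was 0 under every limma and edgeR setting run, and 7 with DESeq2, 10 with DESeq2 and the replicate block (chosen after seeing the data) and 0 with DESeq2 and no replicate 2 term. The DESeq2 count ranged from 0 to 8 without single libraries, with the 8 reached without mutant replicate 2 and without wild-type replicate 2. In both of those fits the genotype estimate rests on replicates 1 and 3 alone. The count at an unadjusted p under 0.05, 17 in the report, was 1 with no replicate 2 term, with limma and with DESeq2, and 10 to 22 without single libraries. It was 25 with the replicate block (9.79% of all genes were lower at this level), which changed no limma call. The shares of all genes under the other settings are not given here. The median log2 fold change lay between −0.48 and −0.22 over all fits run. The median log2 difference of replicate 2 ran from 0.54 to 0.87 without single libraries, and its 24 calls from 3 to 27. Pseudocounts of 0.5 and 5, no filter, a mean of at least 50 and TMM scaling changed no direction of a named member. The log2 fold change of mcm4 ran from −0.20 to 0.20 and that of mcm5 from −0.36 to 0.15 without single libraries. The value of mcm4 turned to −0.20 without mutant replicate 1, −0.17 without wild-type replicate 3 and −0.0003 with DESeq2 and the replicate block, and that of mcm5 to 0.15 without mutant replicate 3 and 0.07 without wild-type replicate 1. Over 18 named members and 19 settings, 320 values kept direction and side of the threshold, 17 passed it in addition, all with DESeq2, and 5 turned. The cause of these changes was not tested.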
